A study of Mus musculus with 2 samples.

Results

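The genes described here are 10 mouse genes of fibroblast growth factor (FGF) signalling: the receptors Fgfr1, Fgfr2 and Fgfr3, the inhibitors Spry1, Spry2, Spry4, Spred1 and Dusp6, and the ETS transcription factors Etv4 and Etv5. They were chosen by gene name from tables of N6-methyladenosine (m6A) measurements, and a site was a listed position with at least 20 reads in replicate 2. By that rule 5 sites of 16212 in replicate 2 belonged to these genes, and all 5 lay on 1 transcript of Fgfr1. The tables came from 2 libraries of wild-type (WT) retinal organoids of the Rx:GFP line at day 6, a mouse line named for a fluorescent reporter of the eye-field gene Rx. All organoids had been treated with AGN at 0.1 µM, both libraries came from the same line and carry the same batch label, and the labels do not say whether they came from separate cultures. The 2 libraries form 1 group, so no contrast between conditions could be made, and every value below is a description without a test. Each spread (SD, n = 2) measures only the difference between these 2 libraries, which may be technical.

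FGF ligands bind receptor tyrosine kinases at the cell surface and activate the RAS and MAP kinase cascade. The cascade switches on its own brakes: Sprouty and Spred proteins act on the path to RAS, and DUSP6 removes phosphate from ERK. Etv4 and Etv5 are transcription factors that the pathway induces. In the developing eye, FGF signals favour neural retina over pigment epithelium in the optic vesicle. The m6A mark is placed on mRNA by a writer complex with METTL3 as its catalytic subunit, mostly in a short sequence context around the modified adenosine.

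The RNA was read directly on nanopores, without copying to cDNA. The deposited value is the fraction modified, between 0 and 1, for a position on a transcript, with the reads covering it. Where a fraction is given over a number of reads below, that number is the coverage listed beside it. It is not the divisor of the fraction, which is not given. At most positions the fraction multiplied by its coverage was not a whole number, so fewer reads than listed may lie behind it. Each position carried 1 of 4 motifs of 5 bases, written in DNA letters, and these motifs are the sequence shared by all values below. 1 motif is AGACT, and the other 3 begin with GGAC and end in A, C or T. They are shown because the fraction differed between them: over all 16212 sites of replicate 2 the median was 0.667 at GGACA, 0.263 at AGACT, 0.231 at GGACC and 0.230 at GGACT. Which base of the motif a position marks is not stated, and wider sequence around the positions was not used here. Replicate 1 listed 26441 positions in 5699 named genes and replicate 2 listed 50099 in 8057, from 5 reads upward, and at positions listed in both the reads in replicate 2 were a median of 2.12 times those in replicate 1. The eye-field markers Rax, Six3, Six6, Lhx2, Pax6, Sox2 and Otx2 were all listed in both libraries, with 17 to 261 reads at the deepest position in replicate 2. None of 3 pluripotency markers and none of 4 mesoderm and endoderm markers was listed.

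Of the 10 genes, 4 were listed in replicate 1 (Fgfr1, Fgfr2, Spred1 and Dusp6) and 6 in replicate 2 (these and Spry1 and Etv5). Fgfr3, Spry2, Spry4 and Etv4 were listed in neither. A gene appears only where a motif position has at least 5 reads, so absence here is no measure of expression, and in organoids fewer cells of a type and less RNA per cell cannot be told apart. Together the 6 genes held 88 positions, each counted on its own transcript, on 11 transcripts, with 23 in replicate 1, 80 in replicate 2 and 15 in both. Transcripts of 1 gene share sequence, and with positions matched between Fgfr1 or Fgfr2 transcripts counted once, as described below, 66 were left.

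Depth set how much could be read from each gene. At the deepest position Fgfr1 had 11 reads in replicate 1 and 29 in replicate 2, Spred1 had 9 and 18, and Dusp6 had 7 and 9. Fgfr2 reached 6 and 7 reads, and Spry1 and Etv5 reached 6 and 7 reads in replicate 2 alone. Fgfr1 was therefore the only one of the 6 genes listed in replicate 2 with a site of 20 reads, while 48.6% of all genes listed there had one. The member positions on either side of the minimum were Fgfr1 1307 with 26 reads and Spred1 2013 with 18. By its deepest position Fgfr1 stood at percentile 64.6 among these genes and Spred1 at 48.6. Dusp6 stood at 22.8, Fgfr2 and Etv5 each at 14.2, and Spry1 at 9.1.

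**Figure D1:**
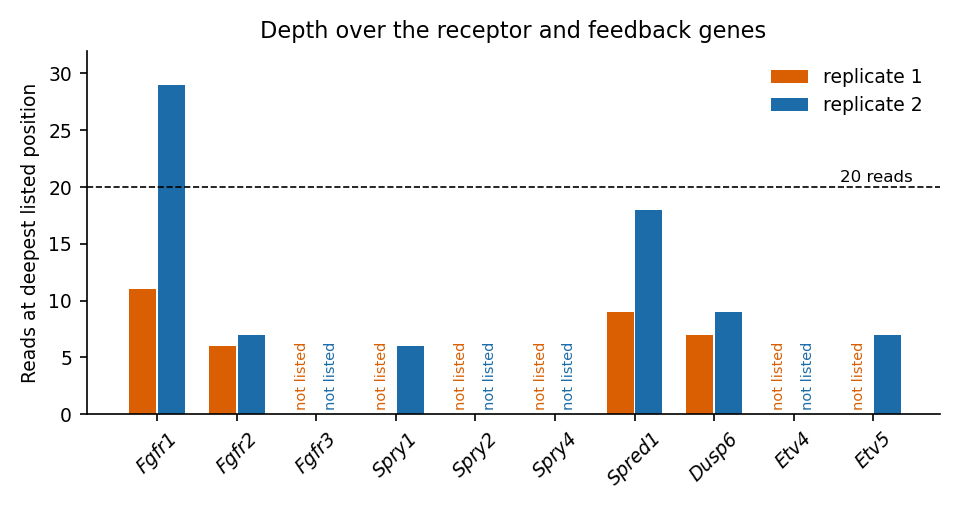
Reads at the deepest listed position (vertical axis) of each of the 10 genes in replicate 1 (orange) and replicate 2 (blue), with the minimum of 20 reads as a dashed line. Only Fgfr1 in replicate 2 passes it, with 29 reads, and 4 genes are not listed in either library.

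Fgfr1 encodes a receptor used in many embryonic tissues, the neural plate and early eye among them. Its deposited gene interval is chromosome 8, 26003670 to 26065734, with the build not named in the tables. The 5 sites lay on transcript ENSMUST00000084027.12, and their fractions in replicate 2 ran from 0.222 to 0.714 with a median of 0.417. The highest was a GGACA at position 3302, at 0.900 in replicate 1 (11 reads) and 0.714 in replicate 2 (28 reads), which gives 0.807 ± 0.131 (SD, n = 2). The other 2 GGACA sites were lower: 0.222 over 26 reads at position 1307 and 0.333 over 28 reads at position 2919, both listed in replicate 2 only. Both lay farther below position 3302 in replicate 2 than the 0.186 that separated the libraries at that position, while they differed from each other by less than that. The spread between libraries at positions 1307 and 2919 themselves is not known.

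The remaining sites were of intermediate fraction in both libraries. At position 3214, a GGACT, replicate 1 gave 0.286 over 11 reads and replicate 2 gave 0.417 over 28, a mean of 0.351 ± 0.0926 (SD, n = 2). At position 3761, an AGACT, they gave 0.375 over 11 reads and 0.5 over 29, a mean of 0.438 ± 0.0884 (SD, n = 2). Position 3302 was above both in each library, while positions 3214 and 3761 did not differ beyond the spread between libraries. None of the 5 sites reached 20 reads in replicate 1.

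Set beside all sites of the same motif in replicate 2, the Fgfr1 sites fell on both sides of the median. At position 1307 the fraction was above that of 14.8% of 5773 GGACA sites, at position 2919 above that of 22.7%, and at position 3302 above that of 54.3%. The GGACT at position 3214 was above 70.9% of 3920 sites and the AGACT at position 3761 above 75.9% of 2937 sites. These percentages rank 5 positions of 1 gene and carry no test. Among sites of 20 to 39 reads, the depth of these positions, they were 15.3%, 22.5%, 54.0%, 71.7% and 76.1% in the order just given.

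Replicate 1 listed 3 further positions of this transcript that replicate 2 did not list. They were a GGACA at position 1226 with a fraction of 1 over 8 reads, an AGACT at 1697 with 0.5 over 8 reads and a GGACC at 3492 with 0 over 11 reads. The positions of this transcript that replicate 2 did list had 26 to 29 reads there. Over the 6 genes, 15 of the 23 positions of replicate 1 were listed again in replicate 2. Over the whole tables, 73.1% of 25654 positions on transcripts listed in both were listed again. The reason was not tested.

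**Figure D2:**
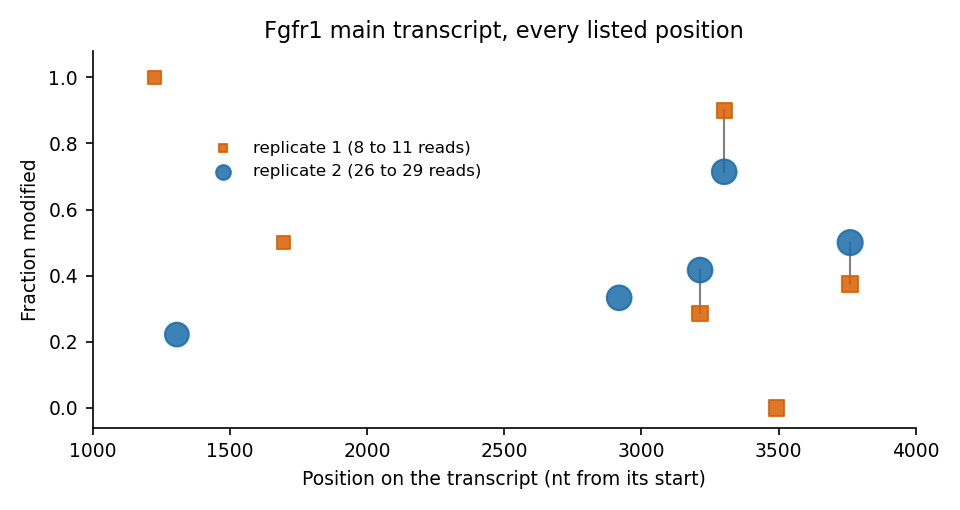
Fraction modified (vertical axis) at each listed position of the Fgfr1 transcript ENSMUST00000084027.12, by distance in nucleotides from its start (horizontal axis), in replicate 1 (orange squares) and replicate 2 (blue circles), with larger symbols for more reads. Grey lines join the 3 positions listed in both libraries, of which position 3302 is the highest in each, at 0.900 and 0.714.

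Fgfr1 was also listed on 4 other transcripts with at most 11 reads a position. Alternative splicing of this gene changes the extracellular part of the receptor. On 3 of these transcripts the motifs recurred at a constant distance from those of ENSMUST00000084027.12: 42 nt earlier on ENSMUST00000117179.8 (5 motifs matched), 760 nt earlier on ENSMUST00000126118.8 (3 matched) and 20 nt later on ENSMUST00000179592.7 (4 matched). ENSMUST00000178276.7 had 1 position and could not be placed. Positions at the same distance and with the same motif were taken as 1 sequence position seen on several transcripts. No transcript sequence was used for this match. How reads were divided between transcripts is not stated, so 1 read may count on several of them.

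In this way 8 positions were seen on more than 1 Fgfr1 transcript. The GGACA at position 3302 had similar fractions on all 4 transcripts of replicate 2: 0.714 over 28 reads, 0.8 over 9, 0.750 over 6 and 0.750 over 8. With the 0.900 of replicate 1 the 5 values spanned 0.186. The GGACA at position 1226 was listed at 1 in both of its values, over 8 reads in replicate 1 and, on ENSMUST00000117179.8, over 9 reads in replicate 2. These GGACA positions were high wherever they were listed.

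At the other end, 2 positions were at 0 in each of their 3 values. The GGACC at position 3492 was listed at 0 over 11 reads in replicate 1 and, on 2 other transcripts, over 9 and 8 reads in replicate 2. The AGACT at matched position 3798 was at 0 in replicate 2 on 2 transcripts, over 8 and 9 reads, and at 0 over 5 reads in replicate 1. The GGACT at matched position 3138 was near 0 as well, with 0.125 over 9 reads and 0 over 5 and 8 reads. Position 3798 follows 3761, the same motif, at which no library or transcript other than ENSMUST00000126118.8 had a 0.

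The remaining matched positions spread widely between transcripts. At position 3214 the values were 0.286 and 0.417 on the deepest transcript in the 2 libraries, and 1 over 9 reads, 0.333 over 6 reads and 0.167 over 8 reads on the others. At position 3761 they were 0.375 and 0.5 on the deepest transcript, and 0.833 over 8 reads, 0 over 6 reads and 0.167 over 9 reads on the others. Both spanned 0.833, and ENSMUST00000117179.8 was the highest at each. At matched position 2191, an AGACT, the values were 0.571 over 10 reads and 0.250 over 5 reads. The minor transcripts had 5 to 10 reads at these 3 positions, and whether the transcripts differ beyond sampling of reads was not tested.

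**Figure D3:**
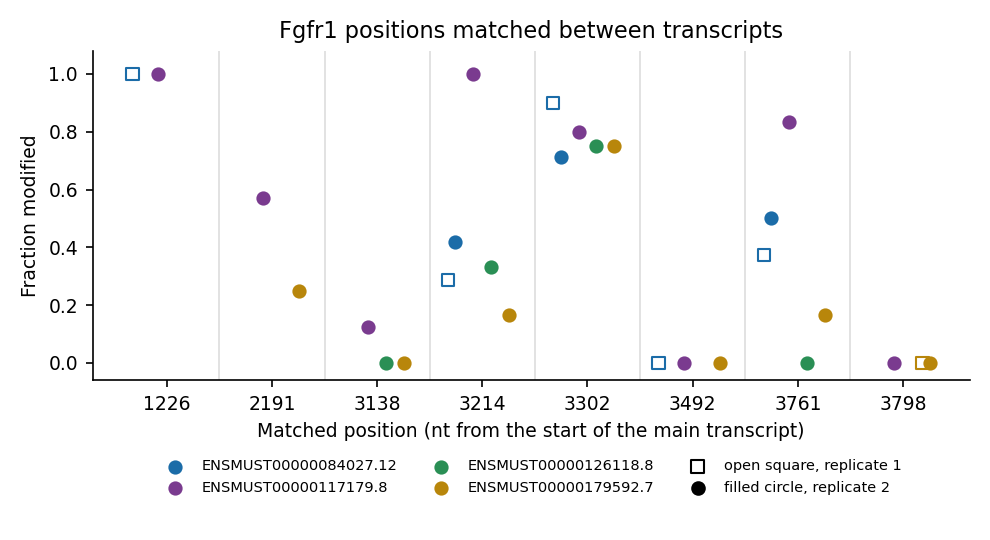
Fraction modified (vertical axis) at the 8 Fgfr1 positions seen on more than 1 transcript, named by distance in nucleotides from the start of ENSMUST00000084027.12 (horizontal axis). Colours mark the 4 transcripts, open squares are replicate 1 and filled circles replicate 2; values at 3302 lie between 0.714 and 0.900, those at 3492 and 3798 are all 0, and those at 3214 and 3761 each span 0.833.

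Over all of its listed positions, Fgfr1 had a median fraction of 0.375 at 7 positions in replicate 1 and 0.292 at 32 positions in replicate 2. In replicate 2 the median was 0.714 at 9 GGACA positions, 0.250 at 9 AGACT, 0.167 at 10 GGACT and 0.100 at 4 GGACC. A fraction of 0 was listed at 9 of the 32 positions and a fraction of 1 at 2.

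Fgfr2, the receptor known from lens, limb and skeletal development, had 2 positions in replicate 1 and 16 in replicate 2, on 2 transcripts and with 5 to 7 reads each. Its deposited interval is chromosome 7, 129764181 to 132725079, a span of 2960899 bases against 104358 in RefSeq (GRCm38.p6), so the deposited interval is uncertain. The median fraction was 0.667 in replicate 2. Motifs on ENSMUST00000117872.7 lay 27 nt before those of ENSMUST00000120187.8 at 6 positions, matched in the same way. The GGACA at position 3021 of the latter was at 1 on both transcripts and the GGACA at 2834 at 0.750 on both, each over 5 reads. The AGACT at 3785 was at 0.667 over 7 and 6 reads.

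The GGACT at position 3531 of Fgfr2 linked the libraries, at 0.750 in replicate 1 (6 reads) and, on the other transcript, also at 0.750 in replicate 2 (5 reads). At the other 2 matched positions the transcripts differed, 0.400 against 0 at the AGACT at 3002 and 0.333 against 0 at the GGACT at 3085. The other position of replicate 1, an AGACT at 3717, had 0.5 over 6 reads and was not listed again. No Fgfr2 position was listed on the same transcript in both libraries. In replicate 2 the GGACA positions of Fgfr2 had a median of 0.875 over 6 positions and ran from 0 to 1.

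Among the inhibitors, Spred1 was the best covered. It encodes a membrane-associated protein that holds back RAS signalling together with neurofibromin. The deposited interval is chromosome 2, 116951855 to 117012760, and all positions lay on ENSMUST00000028829.12. It had 7 positions in each library, 6 of them shared, over 7 to 9 reads in replicate 1 and 13 to 18 in replicate 2. Its median fractions in the 2 libraries were 0.167 and 0.154.

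A single Spred1 position stood above the rest in both libraries. The GGACA at position 1886 was at 0.750 in replicate 1 (9 reads) and 0.867 in replicate 2 (17 reads), with a mean of 0.808 ± 0.0825 (SD, n = 2). Every other Spred1 position was at 0.5 or lower in replicate 1 and at 0.286 or lower in replicate 2. The next highest was the AGACT at 1227, with 0.5 over 8 reads and 0.286 over 13 reads (0.393 ± 0.152, SD, n = 2). The GGACT at 2013 had 0 over 9 reads and 0.154 over 18 reads.

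The other AGACT positions of Spred1 were low in both libraries. Position 1275 was at 0 (replicate 1, 8 reads) and 0.2 (replicate 2, 13 reads). In the same order, the fraction at position 1497 was 0.2 over 7 reads and 0.143 over 13 reads, and at position 1509 it was 0.167 over 8 reads and 0.111 over 13 reads. Position 1253 was listed in replicate 1 only, at 0 over 8 reads, and position 1134 in replicate 2 only, at 0.0909 over 13 reads. In replicate 2 the 5 AGACT positions had a median of 0.143, where the median over all 10010 AGACT positions was 0.250.

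Dusp6 encodes the cytoplasmic phosphatase of ERK and is a widely used readout of FGF activity. The deposited interval is chromosome 10, 99099093 to 99103351, and its positions lay on ENSMUST00000020118.4, 7 in replicate 1 and 9 in replicate 2, over 5 to 9 reads. Its median fractions in the 2 libraries were 0.250 and 0.333. The libraries were closest at the GGACT at 1124, with 0.333 in both libraries over 6 and 8 reads, and at the GGACT at 1506, with 0.667 over 6 reads and 0.600 over 9 reads. The GGACC at 1498, which lies close to 1506, was low in both, at 0 over 6 reads and 0.167 over 9 reads.

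The largest difference between libraries among these genes was in Dusp6. At the GGACT at position 1589 replicate 1 gave 0 over 6 reads and replicate 2 gave 0.714 over 9, a mean of 0.357 ± 0.505 (SD, n = 2). At the GGACT at 575 it was 0.250 over 5 reads and 0 over 7 reads. Replicate 1 alone listed an AGACT at 2000 with 0.5 and an AGACT at 2336 with 0.2, each over 7 reads. Of the 4 positions listed in replicate 2 alone, 1 was a GGACA, at position 998, with a fraction of 0 over 8 reads, and the others were at 0.125 over 8 reads at 986, 0.600 over 8 reads at 1040 and 0.5 over 5 reads at 290.

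Spry1, a Sprouty protein induced by FGF and other growth factors, was listed in replicate 2 only (chromosome 3, 37694096 to 37698747; ENSMUST00000108109.7). All 9 of its positions had 6 reads, with a median fraction of 0.250. The highest was the GGACC at 1313 with 0.8. The GGACT positions at 1685 and 1992 followed with 0.5 each. The fraction was listed at 0 at 4 positions, among them its 1 GGACA, at 2023.

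Of the ETS factors Etv5 was listed, in replicate 2 only (chromosome 16, 22200059 to 22258469; ENSMUST00000079601.12). It had 7 positions with 5 to 7 reads and a median fraction of 0.5, and it was the only one of the 6 genes with no position under 0.333 in replicate 2. The GGACA at 3321 was at 1, the GGACT at 2156 at 0.8 and the GGACA at 2228 at 0.714, each over 7 reads. The lowest was the GGACT at 3491 with 0.333 over 7 reads. With few reads and, for Etv5 and Spry1, 1 library, no order was drawn from the medians of Etv5, Spry1 and Dusp6.

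**Figure D4:**
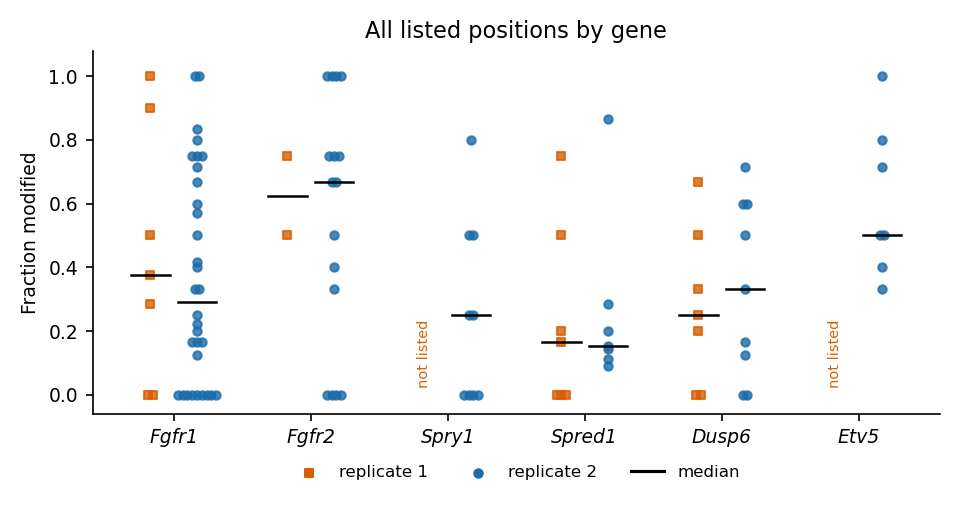
Fraction modified (vertical axis) at every listed position of the 6 listed genes in replicate 1 (orange squares) and replicate 2 (blue circles), with black lines at the medians. Spred1 has a single high position in each library, at 0.750 and 0.867, and its medians are 0.167 and 0.154.

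Over all listed positions of the 6 genes the median fraction was 0.286 at 23 positions in replicate 1 and 0.333 at 80 positions in replicate 2, and it was 0.333 over all positions of each library. By motif the members of replicate 2 had medians of 0.750 at 21 GGACA positions in 6 genes, 0.333 at 27 GGACT, 0.250 at 11 GGACC and 0.2 at 21 AGACT. The same medians over all positions were 0.667, 0.222, 0.250 and 0.250. GGACA had the highest of these medians in both, although single GGACA positions of the 6 genes ran from 0 to 1. With positions matched between transcripts counted once, on the deepest transcript, its median was 0.691 at 16 positions, against 0.375 at GGACC, 0.333 at GGACT and 0.171 at AGACT. At the 5 sites of 20 reads, all in Fgfr1, the order differed: the median was 0.333 at 3 GGACA sites, and the single GGACT and AGACT sites had 0.417 and 0.5. In replicate 2 GGACA made up 26.2% of the 80 listed positions of the 6 genes and 34.1% of all 50099 listed positions.

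The libraries were then compared at the 15 positions listed in both, 4 in Fgfr1, 6 in Spred1 and 5 in Dusp6. The fraction was higher in replicate 2 at 7, lower at 6 and equal at 2, with a median difference of 0 and a median absolute difference of 0.131. The root mean square difference was 0.130 in Fgfr1, 0.147 in Spred1, 0.348 in Dusp6, where position 1589 alone differed by 0.714, and 0.231 over all 15. Over all 9607 positions whose lower coverage was also 5 to 11 reads it was 0.238, and the median absolute difference was 0.133. A difference above 0.2 was seen at 3 of the 15 (20%) and at 32.4% of the 9607. Of the 15 positions, Fgfr1 3302 and Spred1 1886 had the highest fractions in replicate 1. In replicate 2 Spred1 1886 was the highest, and Fgfr1 3302 was level with Dusp6 1589 at 0.714.

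**Figure D5:**
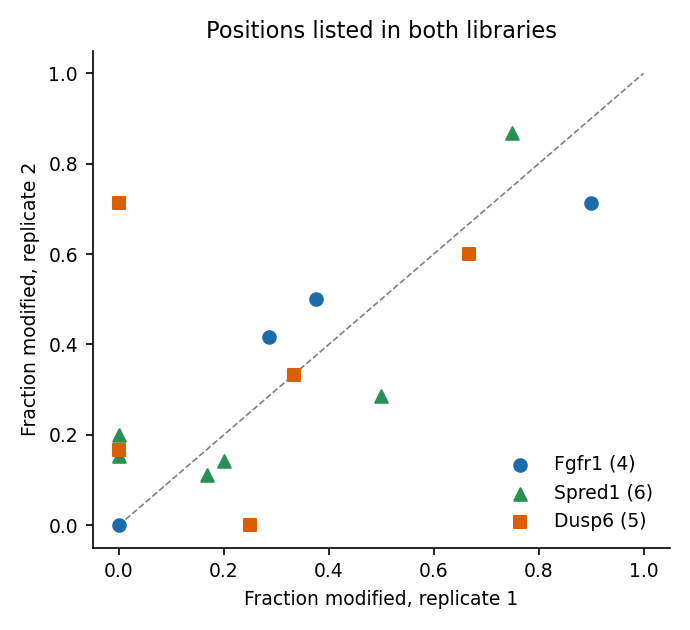
Fraction modified in replicate 1 (horizontal axis) against replicate 2 (vertical axis) at the 15 positions listed in both libraries, by gene, with the line of equality dashed. Dusp6 position 1589 lies farthest from the line, at 0 and 0.714.

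The rest of the pathway was taken from a list of 63 further genes, of which 25 were listed in replicate 1 and 37 in replicate 2. In replicate 2, 19 of the 37 listed genes had a site (51.4%, close to the 48.6% of all genes listed there), 110 sites in all, and 7 had a site of at least 20 reads in both libraries. Of 11 FGF ligands only Fgf13, an intracellular member of the family that is not secreted, was listed, with 4 sites in replicate 2 and a median of 0.432. Fgfr4 and the coreceptor Klb were not listed. Fgfrl1, a receptor without a kinase domain, reached 8 reads in replicate 1 and 6 in replicate 2.

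In the cascade between receptor and nucleus 9 of the 13 genes listed in replicate 2 had a site there, and of 9 listed adaptors 5 had one. The share over all genes listed there was 48.6%. Map2k2, which encodes the ERK kinase MEK2, had 3 sites of at least 20 reads in both libraries, each listed on 2 transcripts at a distance of 35 nt. Their mean fraction was 0.323 ± 0.00641 on ENSMUST00000105331.7 and 0.391 ± 0.0595 on ENSMUST00000143517.7 (each SD, n = 2). Mapk3, which encodes ERK1, had 1 site of at least 20 reads in both, with 0 over 20 reads and 0.0435 over 35 reads. Its 3 sites in replicate 2 ran from 0.0435 to 0.417.

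Crk, an SH2 and SH3 adaptor, had 2 shared sites with a mean of 0.310 ± 0.0227 (SD, n = 2). Its 22 sites in replicate 2, on 2 transcripts, had a median of 0.233 and ran from 0 to 1. In replicate 2 alone Crkl had 11 sites with a median of 0.400, Hras 7 with 0.600 and Grb2 6 with 0.492. Of the other genes with no shared site, Rasa1 had a median of 0.889, Plcg1 0.143 and Rps6ka1 0, each over 3 sites, and Nras 0.834 and Ptpn11 0.482, each over 2. Of 12 further inhibitors 7 were listed in replicate 2, and 2 of these, Rasa1 and Dusp9, had a site there, beside 48.6% of all listed genes. Spred2 had at most 16 reads, Dusp7 16 and Dusp5 11, all in replicate 2 alone.

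Of 11 further target genes, Ier2 and Ccnd1 had sites in both libraries. Ier2, an immediate-early gene, had 9 shared sites with a mean of 0.571 ± 0.0478 (SD, n = 2), from 0.127 ± 0.0854 at the GGACA at 979 to 0.912 ± 0.0530 at the GGACA at 1113 (each SD, n = 2). Ccnd1, which encodes cyclin D1, had 3, with 0.907 ± 0.0602 at the GGACC at 3493 and 0.0476 ± 0.0673 at the GGACT at 2597 (each SD, n = 2). At the 26 pathway sites with 20 reads in both libraries, the 6 entries of Map2k2 included, the median absolute difference was 0.0883 and the largest 0.250. In both Ier2 and Ccnd1 the highest and lowest sites were farther apart than the libraries were at any of these 26 sites.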

How the data were processed

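Poly(A) RNA was sequenced as native RNA with the RNA002 kit for about 48 h on 1 flow cell per library, per the labels' protocols. The coverage is a count of reads over a position and the fraction modified is a fraction from 0 to 1, both as deposited by the authors. What the fraction was divided by is not given. Multiplied by its coverage, it gave a whole number for 39.4% (replicate 1) and 36.0% (replicate 2) of positions, with a tolerance of 5e-05 on the fraction, so no interval was set around a fraction. The base caller, aligner and modification caller are not given in the sources used here. The submitters' processing notes list the build mm10, but none of the 6 member genes had a deposited start within 1000 bases of RefSeq's GRCm38.p6, so coordinates are given as deposited.

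Member rows of the plus tables were taken by gene name and matched between libraries on transcript and exact end position. The minimum was 20 reads in replicate 2, with 10, 50 and no minimum as alternatives. All 10 genes are named, and of the pathway list the 7 genes with a site in both libraries and the 10 others with the most sites in replicate 2, except for items that are not reported here, with further genes named by role after their values were seen. Constant distances between transcripts needed 3 matched motifs. Members and lists were chosen with earlier results of these data known. The minus tables, with 11 and 35 positions, held no member or pathway gene. The code was tested on simulated data. Python 3.11.15 and pandas 2.3.3 were used.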

Additional observations from a re-analysis of the deposited data

How the results depend on the processing

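The number of member sites depends on the minimum: 5 with 20 reads in replicate 2, 14 with 10 reads (in Fgfr1 and Spred1), 0 with 50 reads and 80 with no minimum. Choosing sites by 20 reads in replicate 1 left 0. With 1 transcript per gene it was 5, and with reads summed over matched transcripts, chosen after seeing the data, 6. The median fraction in replicate 2 was 0.417 and became 0.254 with 10 reads, where Spred1 and further Fgfr1 positions enter. It was 0.333 with no minimum and 0.417 with 1 transcript per gene. With GGACA sites alone it was 0.333 and with them left out 0.458, both chosen after seeing the data. These moves, other than that with 10 reads, were below 0.0884, the SD between libraries of the median at the 3 sites listed in both. The median over 5 sites has no SD of its own. Without either replicate the median fraction ran from 0.375 (3 sites) to 0.417 (5 sites). At the same 3 sites the medians were 0.375 in replicate 1 and 0.5 in replicate 2. With n = 2 this says nothing about stability. The median difference between libraries was 0.125 at 3 sites, and the differences at these sites had an SD of 0.181. That SD is taken over 3 sites of 1 transcript and is no spread between libraries. The median difference was 0.117 with 10 reads, 0 with no minimum and 0.125 with matching within 5 nt. Counting matched positions once, also chosen after seeing the data, gave a GGACA median of 0.691 in place of 0.750 over all member positions of replicate 2. The pathway list held 110 sites, 192 with 10 reads, 13 with 50 reads, 290 with no minimum and 95 with 1 transcript per gene. With 50 reads no member fraction or difference could be had. No paired analysis was possible because the samples form 1 group. No member position had more than 11 reads in replicate 1.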
